A study of Mus musculus with 18 samples.

Results

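The small RNAs described here are the 4 mature arms of the mouse hairpins mir-140 and mir-455, namely mmu-miR-140-5p, mmu-miR-140-3p, mmu-miR-455-5p and mmu-miR-455-3p, written below without the species prefix. They were chosen by name from the table of read counts, with the levels of these libraries already known, because both hairpins are linked to cartilage and because the arms of each differ in level. They are 4 of the 1907 mature miRNAs in the table, of which 1232 had any read. The study asked whether pseudouridine (Ψ), an isomer of uridine, is present in miRNAs of NIH/3T3 cells, an established line of mouse embryonic fibroblasts. Small RNA was sequenced before (input) and after immunoprecipitation (IP) with an antibody to Ψ, in wild type (WT) cells and in cells in which Pus1, which encodes a Ψ synthase, had been knocked down for 3 days (KD3) or 6 days (KD6). Each of the 6 groups held 3 libraries, replicates A, B and C, which gave 18 libraries in all. All groups came from this single cell line, grown in the same medium with serum. The labels give no day and no control treatment for WT, and KD3 and KD6 differ in day. Differences between conditions therefore cannot be told apart from those of time in culture or handling. Nothing in the labels states that replicates were separate cultures, so the tests measure the spread between these libraries, which may be technical. A miRNA table does not show the Pus1 transcript, so the degree of knockdown was not checked here.

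A miRNA hairpin is cut by Dicer into a duplex, from which the 5p arm, the 3p arm or both are loaded into an Argonaute protein. The loaded arm pairs with target mRNAs mainly through its seed, bases 2 to 8. In chondrocytes mir-140 is transcribed with its host gene Wwp2, which encodes a ubiquitin ligase, under the transcription factor Sox9. mir-455 lies in Col27a1, which encodes a fibrillar collagen of cartilage. Both hairpins are known for their abundance in cartilage and for roles in chondrocyte growth and cartilage upkeep, and both are also made in fibroblasts.

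The mature sequences of 3 arms are shown, which differ in the number of uridines, the base that a Ψ synthase converts. The RefSeq sequences used held none for miR-140-5p, so this arm is absent from the seed and uridine comparisons. The 3 sequences are from RefSeq, annotated on GRCm38.p6, are written 5′ to 3′ and have the seed in capitals.
miR-140-3p: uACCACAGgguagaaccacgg
miR-455-5p: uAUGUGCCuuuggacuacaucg
miR-455-3p: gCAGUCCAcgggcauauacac
miR-140-3p lies at chr8:107551288-107551308, has 21 bases, of which 2 are uridines, and has a GC content of 57.1%. miR-455-5p lies at chr4:63256867-63256888, has 22 bases, of which 8 are uridines, and has a GC content of 45.5%. miR-455-3p lies at chr4:63256904-63256924, has 21 bases, of which 3 are uridines, and has a GC content of 57.1%. All are on the plus strand. The hairpin Mir140, at chr8:107551244-107551313, overlaps an annotated exon of at least 1 Wwp2 transcript. The hairpin Mir455, at chr4:63256851-63256932, lies in an intron of Col27a1. Both have the orientation of their host gene. The 3 seeds differ from each other. Among the tested miRNAs miR-497b shares the seed of miR-140-3p, and miR-5129-3p shares that of miR-455-5p.

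Mapped reads per library ranged from 3989031 to 15099781 in 17 libraries and were 241109 in replicate A of the KD6 input. The share of reads outside miRNA rows was 5.47% to 9.96% in the inputs and 14.8% to 38.2% in the IP libraries. Of 6 fibroblast and mesenchymal miRNAs the summed level was 350098 to 611309 counts per 1000000 reads (CPM) in the inputs and 79503 to 205987 in the IP libraries. Most of it was miR-21a-5p, at 258259 to 462952 CPM in the inputs, and miR-143-3p, at 69019 to 138705. Of 18 miRNAs of other cell types the summed level was 995 to 1383 and 2179 to 3179, nearly all of it miR-9-5p and miR-122-5p. In the inputs the neuronal miR-9-5p had 918 to 1349 CPM, within the range of the mesenchymal miR-145a-5p, at 525 to 1745. Each of the other 16 miRNAs of other cell types had at most 1.61 CPM in any input and 10.8 CPM in any IP library. Of these miR-133a-3p, miR-208a-3p, miR-142a-3p, miR-141-3p, miR-294-3p and miR-295-3p had no read in any input, while the muscle miRNA miR-1a-3p and the epithelial miR-200b-3p and miR-200c-3p had reads in 8 of 9 inputs. The part of these shifts in the results below was not tested. CPM was taken over the reads of the 547 tested miRNAs after scaling by the trimmed mean of M values (TMM), and was not divided by length, as the arms have nearly the same length.

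Over all 18 libraries miR-140-3p had 370355.4 estimated reads and ranked 34 among all mature miRNAs, and miR-455-5p had 32698.9 and ranked 113. miR-140-5p had 26415.3 and ranked 121, and miR-455-3p had 4747.1 and ranked 200. So mir-140 was read mainly as its 3p arm and mir-455 mainly as its 5p arm.

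In WT, input levels of miR-140-3p, the more abundant arm of mir-140, were 5540, 4786 and 4792 CPM in replicates A, B and C. Its WT IP levels were 418, 421 and 319 CPM. The groups were far apart, with a mean of 5040 ± 434 CPM (SD, n = 3) in the input and 386 ± 58.2 in the IP, a ratio of 13.1. In KD3 the inputs held 6272, 5832 and 6099 CPM and the IP libraries 562, 359 and 332. In KD6 the inputs held 2809, 3241 and 2901 CPM and the IP libraries 108, 165 and 185. Input exceeded IP 14.5-fold in KD3 and 19.5-fold in KD6, and every IP library of a condition lay below every input of it.

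miR-140-5p, the less abundant arm, had 281, 306 and 354 CPM in the WT inputs and 125, 147 and 92.7 in the WT IP libraries. In KD3 it had 316, 323 and 285 CPM in the inputs and 105, 78.7 and 120 in the IP libraries. The inputs exceeded the IP libraries 2.58-fold in WT and 3.04-fold in KD3, with no overlap. In KD6 the inputs held 130, 291 and 285 CPM and the IP libraries 149, 147 and 124, so that the shallow input replicate A, with 32.0 reads of this arm, fell within the IP range. The KD6 ratio of the means was 1.68.

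miR-455-5p, the more abundant arm of mir-455, had 404, 369 and 442 CPM in the WT inputs but 4.22, 9.06 and 8.83 in the WT IP libraries. These IP levels rest on 15.5 to 55.0 reads. In KD3 the inputs held 561, 540 and 534 CPM and the IP libraries 14.3, 8.03 and 9.53, and in KD6 the inputs held 370, 413 and 328 CPM and the IP libraries 23.8, 21.5 and 15.1. Input exceeded IP 55.0-fold in WT, 51.3-fold in KD3 and 18.4-fold in KD6.

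miR-455-3p was the least abundant, with 42.7, 45.3 and 44.0 CPM in the WT inputs and 19.5, 23.4 and 24.6 in the WT IP libraries. In KD3 the inputs held 63.5, 51.2 and 43.4 CPM and the IP libraries 53.0, 25.7 and 38.5. In KD6 the inputs held 24.4, 70.3 and 38.2 CPM and the IP libraries 15.4, 47.1 and 53.3, where input replicate A rests on 6.3 reads. Input and IP were apart for this arm in WT but overlapped in KD3 and in KD6.

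All 3 IP libraries lay below all 3 inputs for 4 of the 4 arms in WT, where this held for 43.7% of the 547 tested miRNAs. It held for 3 arms in KD3, against 44.2% of all, and for miR-140-3p and miR-455-5p in KD6, against 26.3% of all. These levels are the ones by which the arms were chosen, so they are given as a description, with no test.

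**Figure D1:**
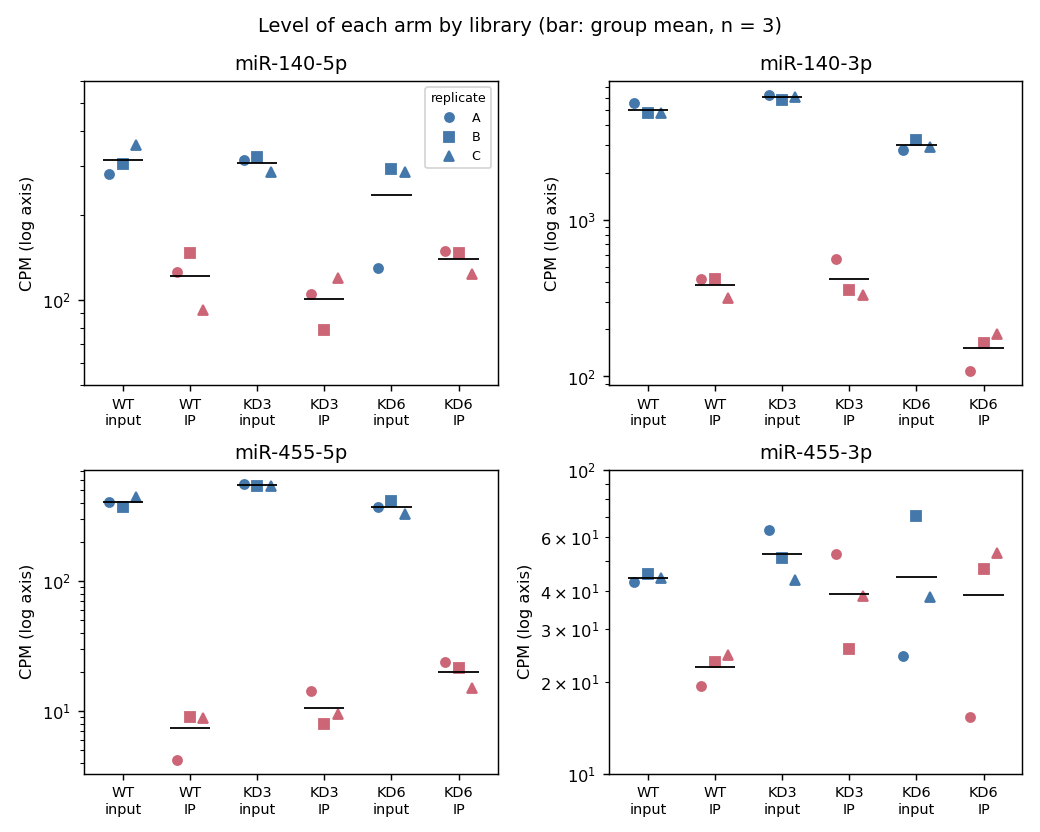
Levels of the 4 arms in CPM (log axis, with its own range in each panel) in the 18 libraries, with inputs in blue, IP libraries in red, replicates by marker shape and group means as bars. miR-140-3p inputs (2809 to 6272 CPM) and IP libraries (108 to 562) are widely separated, as are those of miR-455-5p, whereas those of miR-455-3p overlap in KD3 and KD6.

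On the log2 scale, the fitted IP to input ratio of miR-455-5p was -5.75 ± 0.30 (SE) in WT, -5.68 ± 0.30 in KD3 and -4.22 ± 0.28 in KD6. The median ratio of all tested miRNAs was -0.30, -0.30 and -0.32 in these conditions. Counted from the lowest ratio, miR-455-5p stood at place 19 of 547 in WT and in KD3 and at place 73 in KD6. The ratio of miR-140-3p was -3.71 ± 0.24, -3.86 ± 0.24 and -4.29 ± 0.25, at places 63, 65 and 70. The other arms lay much nearer to the median. miR-140-5p had ratios of -1.37 ± 0.26, -1.60 ± 0.26 and -0.80 ± 0.26. miR-455-3p had -0.96 ± 0.36, -0.43 ± 0.36 and -0.33 ± 0.38, and in KD6 its ratio was that of the median miRNA. A ratio below 0 means a smaller share of the IP library than of the input, and does not count Ψ in the molecule.

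The zero of this scale depends on how the libraries were scaled. With replicate A of the KD6 input as the TMM reference, the median ratio became 0.32 in WT, and the called miRNAs went from 143 higher and 215 lower to 214 higher and 168 lower. Relative to the median of all miRNAs, miR-455-5p in WT lay between -5.84 and -5.44 under all 8 scalings, filters and tools that used every library, and miR-140-3p lay between -3.79 and -3.39. miR-140-5p lay between -1.44 and -1.05 and miR-455-3p between -1.05 and -0.65.

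**Figure D2:**
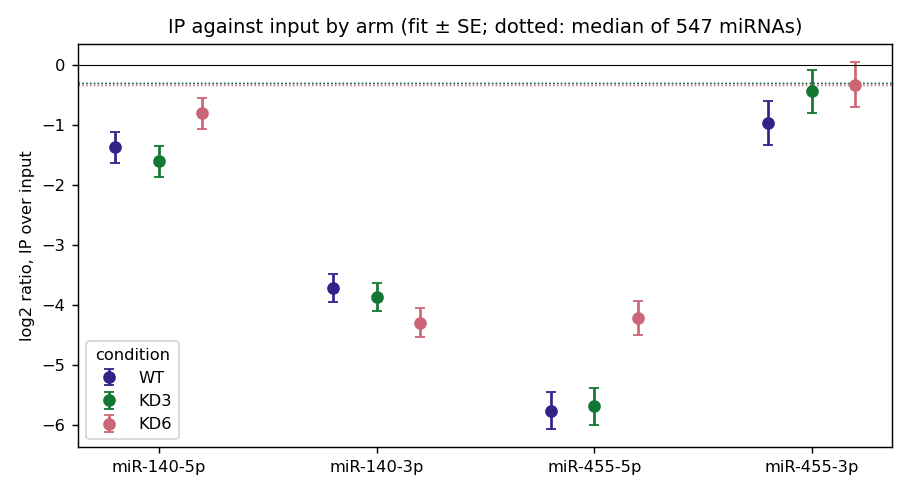
Fitted log2 ratio of IP over input for each arm in WT, KD3 and KD6 (points, with SE as bars) and the median of the 547 tested miRNAs in each condition (dotted lines, -0.30 to -0.32). miR-140-3p and miR-455-5p lie at -3.71 to -5.75 and the other arm of each hairpin at -0.33 to -1.60.

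The arms of a hairpin can be compared within 1 library, where scaling between libraries plays no role. The 5p arm took 4.83%, 6.00% and 6.89% of mir-140 reads in the WT inputs. In the WT IP libraries it took 23.1%, 25.9% and 22.5%. The means were 5.91% ± 1.03 (SD, n = 3) and 23.9% ± 1.82, so the 3p arm was read less, relative to its partner, after IP. In KD3 the 5p share was 4.80%, 5.24% and 4.47% in the inputs and 15.8%, 17.99% and 26.6% in the IP libraries. In KD6 it was 4.43%, 8.25% and 8.95% in the inputs but 58.1%, 47.2% and 40.1% in the IP libraries. In 1 of 3 KD6 IP libraries the 5p arm thus had more reads than the 3p arm, with 408.5 against 295.2.

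mir-455 moved the opposite way. Its 5p arm took 90.5%, 89.1% and 91.0% of the reads in the WT inputs and 17.2%, 28.0% and 26.5% in the WT IP libraries. In KD3 it took 89.8%, 91.3% and 92.5% of the input reads and 21.3%, 24.0% and 19.9% of the IP reads. The arm that was more abundant in each input was the less abundant one in each of these IP libraries. In KD6 the 5p share was 93.5%, 85.5% and 89.6% in the inputs and 60.7%, 31.4% and 22.0% in the IP libraries. Replicate A of the KD6 IP therefore kept more 5p than 3p reads, 65.0 against 42.0, with a 95% Wilson interval of 51.3% to 69.5%. Intervals of this kind cover counting error only, since the reads carried no molecular identifiers.

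**Figure D3:**
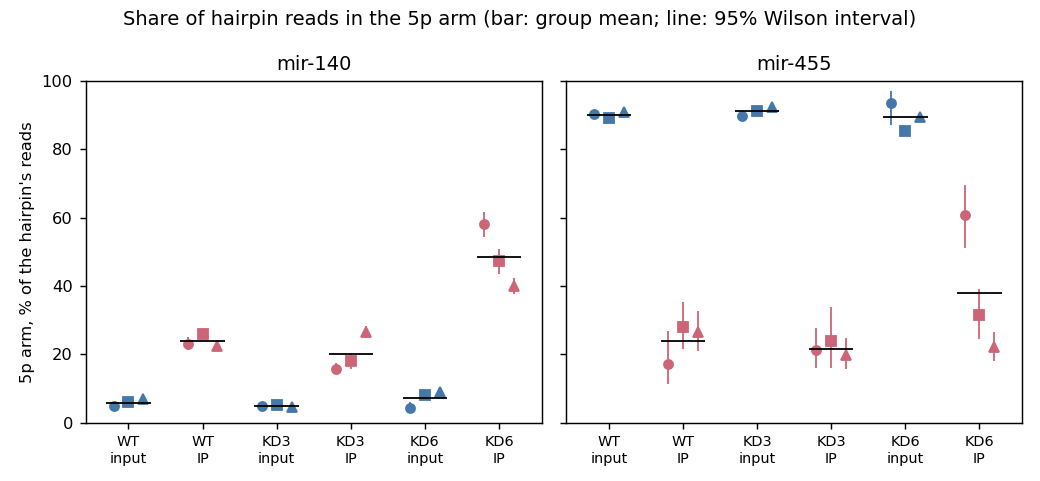
Share of each hairpin's reads that came from its 5p arm, in percent, in the 18 libraries, with inputs in blue, IP libraries in red, group means as horizontal bars and 95% Wilson intervals as vertical lines. The 5p share of mir-140 rises from 4.43% to 8.95% in the inputs to 15.8% to 58.1% in the IP libraries, and that of mir-455 falls from at least 85.5% to at most 60.7%.

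The distinct read sequences of each arm, which the table lists beside the reads and which high copy numbers of 1 sequence do not raise, gave the same direction. Their number rises with the reads, so this is not an independent check. miR-140-3p had 66.5 at 690.5 reads in KD6 input replicate A and 929.2 at 69705.4 reads in KD3 input replicate A. The 5p arm held 8.79% ± 1.47 (SD, n = 3) of the distinct mir-140 sequences in the WT inputs and 18.5% ± 3.28 in the WT IP libraries. For mir-455 it held 71.9% ± 0.53 and 25.2% ± 6.27. In KD6 it held 10.1% ± 0.68 and 26.9% ± 0.43 for mir-140, and 64.7% ± 2.93 and 39.2% ± 15.0 for mir-455.

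As a difference of log2 IP to input ratios, the 5p arm minus the 3p arm, mir-140 had 2.34, 2.26 and 3.49 in WT, KD3 and KD6, and mir-455 had -4.79, -5.25 and -3.89. Among the 157 hairpins with both arms tested, the median size of this difference was 1.71 in WT, and 41.4% of them had a size over 2. By size mir-455 stood at place 18 in WT, 11 in KD3 and 42 in KD6, and mir-140 at places 58, 59 and 47. Arms of mir-140 thus differed more than those of the median hairpin without standing at the end of the range, and those of mir-455 stood near the low end in WT and KD3. Among the 25 hairpins whose arms both averaged at least 100 CPM, the most negative WT differences were -5.45 for mir-30e, -5.07 for mir-30a and -4.10 for mir-199b. The most positive were 3.84 for mir-382, 2.34 for mir-140 and 1.87 for let-7a-1. In both mir-140 and mir-455 the more abundant arm was the one with the lower ratio, which was so for 83 of the 157 hairpins, or 52.9%, in WT.

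**Figure D4:**
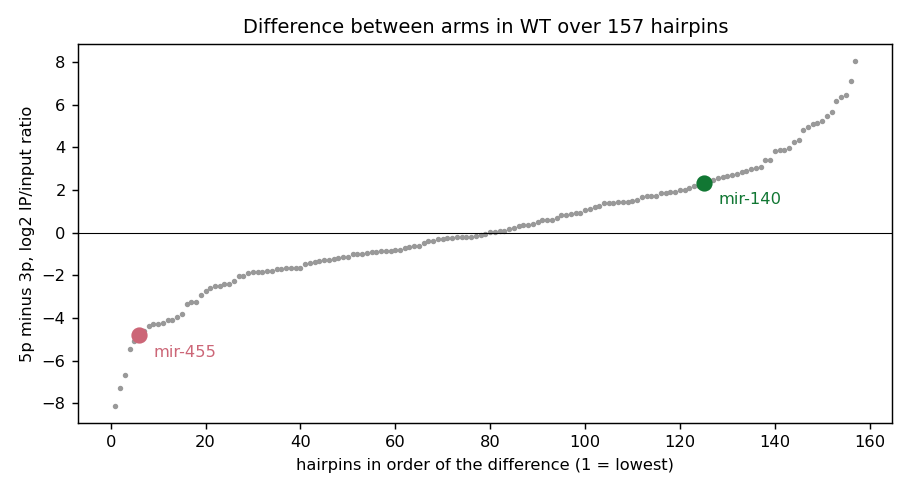
Difference between the 5p and 3p arms in the log2 IP to input ratio in WT, for 157 hairpins in order from the lowest to the highest. mir-455 lies at -4.79, at place 6 from the lowest end, and mir-140 at 2.34, at place 125.

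After 3 days of knockdown the arm ratios in the IP overlapped those in WT for both hairpins. With 3 against 3 libraries no exact permutation p can fall under 0.05. The permutation tests below therefore could not call a difference, and their p-values do not show that the ratios were equal. The log2 ratio of 5p to 3p reads in the IP was -1.68 ± 0.14 (SD, n = 3) in WT and -2.02 ± 0.49 in KD3 for mir-140, with an exact permutation p of 0.4 (two-sided). It was -1.68 ± 0.48 and -1.84 ± 0.18 for mir-455, with an exact permutation p of 0.7. In KD6 the ratio of mir-140 in the IP was -0.09 ± 0.53, which was 1.59 above WT and 1.93 above KD3. The 3 KD6 libraries lay above all WT and all KD3 libraries, as they did in 10.2% and 8.92% of the 157 hairpins. Each exact permutation p was 0.1, the smallest that 3 against 3 libraries can give, and 0.6 after Benjamini-Hochberg adjustment over the 12 arm ratio tests made. For mir-455 the KD6 ratio in the IP, -0.77 ± 1.26, overlapped WT, with a difference of 0.91 and an exact permutation p of 0.4. Without replicate A of the KD6 IP that difference was 0.21. In the inputs the exact permutation p-values were 0.2 to 0.9 for both hairpins. Within same-letter pairs, the mir-140 ratio was lower in the KD3 than in the WT input in 3 of 3, by 0.01, 0.21 and 0.66 in replicates A, B and C. Exact sign flips within pairs gave a p of 0.25, the smallest that 3 pairs allow, and 0.5 to 0.75 for the other paired input comparisons.

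Whether the IP to input ratio itself differed between conditions was tested by edgeR in 1 model across the 547 miRNAs. The comparisons of KD3 and of KD6 with WT share the WT libraries. Between KD3 and WT no miRNA passed an adjusted p of 0.05, or 0.0%, while 15 had an unadjusted p under that value and DESeq2 called 0. The 4 arms had changes of -0.23 for miR-140-5p, -0.15 for miR-140-3p, 0.07 for miR-455-5p and 0.53 for miR-455-3p on the log2 scale.

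Between KD6 and WT edgeR called 0 of 547 as well, or 0.0%, with 98 at an unadjusted p under 0.05. DESeq2, fitted to 1211 miRNAs, called 31, of which 27 were higher and 4 lower. The 1211 include miRNAs that DESeq2's own filter on low counts can leave without an adjusted p, so no share is given. The median change over all tested miRNAs was 0.19 in edgeR. miR-455-5p had a change in the ratio of 1.54 ± 0.37 (SE; 95% interval 0.77 to 2.30), with an edgeR adjusted p of 0.070. Its 3 KD6 IP libraries, at 15.1 to 23.8 CPM, lay above the 3 WT IP libraries, at 4.22 to 9.06, as did 14.3% of all tested miRNAs. The call depended on the tool and on single libraries. DESeq2 gave 1.49 with an adjusted p of 0.0087, and edgeR without replicate C of the KD6 IP gave 1.31 with an adjusted p of 0.047. With the reference library kept, edgeR passed the threshold without replicate A of the KD6 input (1.51, adjusted p = 0.036), without its replicate B (1.63, 0.045) or without replicate C of the KD6 IP (1.66, 0.026). Scaled to total mapped reads, the change was 0.76 with an adjusted p of 0.19. Over all alternatives in which a library was left out or the scaling was changed the change stayed above 0.

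The other arms did not pass between KD6 and WT. miR-140-3p had a change in the ratio of -0.58 ± 0.30 (edgeR adjusted p = 0.30), miR-140-5p one of 0.57 ± 0.36 (0.41) and miR-455-3p one of 0.64 ± 0.52 (0.56). miR-140-3p passed when scaled to total mapped reads (-1.34, edgeR adjusted p = 0.037), where 51 of 564 miRNAs were called, all of them lower. It also passed on leaving out KD6 IP replicate C (-1.19, 0.046). Between KD6 and KD3 edgeR called 1 miRNA, or 0.183%, which was none of these. There miR-455-5p had a change of 1.47 ± 0.37 (edgeR adjusted p = 0.077; DESeq2 0.021), which passed without replicate A of the KD6 input (1.38, 0.038) or replicate C of the KD6 IP (1.32, 0.036). With the reference library kept it passed without these (1.502, edgeR adjusted p = 0.025, and 1.68, 0.019) and without replicate B of the KD6 input (1.61, 0.045). In the same comparison miR-140-5p had 0.80 ± 0.36 (edgeR adjusted p = 0.24), miR-140-3p -0.43 ± 0.30 (0.46) and miR-455-3p 0.11 ± 0.52 (0.96).

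The inputs show how the arms themselves stood after knockdown. Between KD3 and WT edgeR called 2 miRNAs, or 0.366%, and 1 with the replicate letter as a block, and none of the 4 arms in either fit. miR-140-3p and miR-455-5p were higher in all 3 KD3 inputs than in all 3 WT inputs, by 0.27 ± 0.21 and 0.43 ± 0.24 (log2, SE), as were 13.9% of the tested miRNAs, with edgeR adjusted p-values of 0.86 and 0.76. Scaled to mapped reads alone, miR-140-3p overlapped, as WT input replicate A lay just above all KD3 inputs. miR-455-5p did not, as was so for 8.78% of all tested, while 30.9% lay below. Between KD6 and WT edgeR called 25 miRNAs, or 4.57%, of which 21 were lower, and miR-140-3p was among them. It fell by 0.76 ± 0.22 on the log2 scale (edgeR adjusted p = 0.047), against a median of -0.18 over all tested miRNAs. Its level went from 4786 to 5540 CPM down to 2809 to 3241, and 22.3% of all tested miRNAs had all 3 KD6 inputs below all WT inputs. In reads per 1000000 mapped reads (RPM), too, the KD6 inputs, at 2821 to 2987 RPM, lay below the WT inputs, at 3904 to 4662, as did 15.0% of all tested.

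This call stood close to the threshold. It was lost with scaling by relative log expression, known as RLE (-0.53, edgeR adjusted p = 0.25), with DESeq2 (0.20), without the filter on low counts (-0.41, 0.55), with total mapped reads (0.36), with the shallowest library as reference (-0.48, 0.39) and with the replicate letter as a block (-0.75, 0.066). It was also lost on leaving out any 1 of the 18 libraries, with changes of -0.62 to -0.38, where edgeR also picked another reference library each time. With the reference kept, 3 of 17 such fits passed, with changes of -0.83 to -0.69.

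Between KD6 and KD3, edgeR called 35 miRNAs in the inputs, or 6.4%, again with miR-140-3p as the only one of the 4 arms. It fell by 1.02 ± 0.22 on the log2 scale (edgeR adjusted p = 0.0070), against a median of -0.16 over all tested miRNAs. The call held in all 17 fits that left out 1 library with the reference kept, with changes of -1.15 to -1.03. When edgeR picked the reference anew, it held in 1 of 18, that without replicate A of the KD6 input (-0.91, adjusted p = 0.036), and the changes ran from -0.91 to -0.63. It was lost with total mapped reads (-0.67, adjusted p = 0.16) and with the shallowest library as reference (-0.72, 0.13). miR-455-5p had -0.56 ± 0.24 in this comparison (edgeR adjusted p = 0.21), with all KD6 inputs below all KD3 inputs, as in 22.9% of all tested. For miR-140-5p and miR-455-3p the KD6 inputs overlapped those of WT and of KD3.

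**Figure D5:**
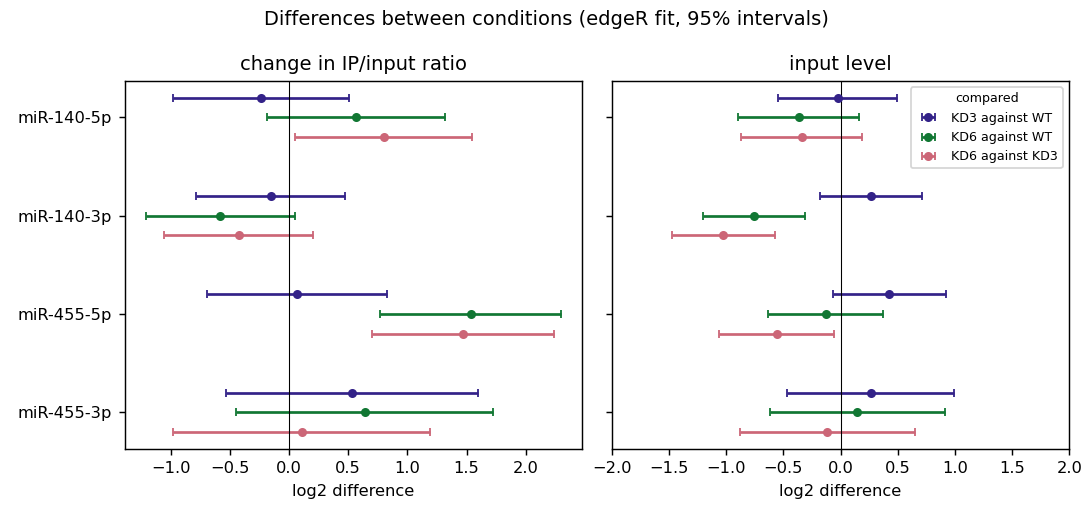
Fitted log2 differences between conditions for the 4 arms, with 95% intervals, in the IP to input ratio (left) and in the input level (right). In the ratio, the intervals of miR-455-5p in KD6 lie above 0 (1.54 against WT, 1.47 against KD3). That of miR-140-5p in KD6 against KD3 (0.80) does so too. In the input those of miR-140-3p in KD6 lie below 0 (-0.76 and -1.02), as does that of miR-455-5p against KD3 (-0.56). The intervals are not adjusted for the number of miRNAs tested. Of these changes only those of miR-140-3p in the input had an edgeR adjusted p under 0.05.

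Some miRNAs of other hairpins had much the same pattern over the 18 libraries. By Pearson's r of log2 CPM with the 151 miRNAs that averaged at least 100 CPM, miR-140-3p was most like miR-99a-5p (0.993), miR-199a-5p (0.993) and miR-24-3p (0.987). miR-455-5p was most like miR-101a-3p (0.990), miR-192-5p (0.988) and miR-148b-3p (0.984). miR-140-5p was most like miR-103-3p (0.927), miR-186-5p (0.927) and miR-27a-3p (0.925). No miRNA came as close to miR-455-3p, for which miR-503-5p reached 0.737. The arms of 1 hairpin were less alike, with r of 0.828 for mir-140 and 0.525 for mir-455. miR-140-3p and miR-455-5p, of different hairpins, had 0.913. The libraries share the split into inputs and IP libraries, which alone gives a high r to any miRNAs low in the IP, so these values are a description.

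The ratios of the 3 arms printed above can be set beside those of miRNAs with as many uridines. miR-455-5p, with 8 uridines, had a lower WT ratio than all but 2 of the 61 other tested miRNAs with the same number, whose median was -0.50. miR-140-3p, with 2, had a lower ratio than all but 1 of 18 others, whose median was 0.14. miR-455-3p, with 3, had a ratio of -0.96 where the median of 22 others was 0.22, and 7 of them were lower. Across the 474 tested miRNAs with a mature sequence, the WT ratio had an r of 0.058 with the percentage of U and of 0.202 with that of GC, over miRNAs that share libraries. Of the miRNAs with a common seed, miR-497b had WT, KD3 and KD6 ratios of -2.75, -3.68 and -2.11, on 856 reads in all. miR-5129-3p had -1.70, -1.90 and -3.46, on 202.9 reads.

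A list of 25 miRNAs known from cartilage and chondrocytes, without the 4 arms, had 18 tested members. It was written with earlier results of these data known, so its IP against input counts are a description, with no test of the list. In WT, 2 of the 18 were higher and 11 lower in the IP (edgeR, adjusted p under 0.05), where 26.1% and 39.3% of all tested were. Their median ratio was -0.84, against -0.30 over all. Lowest were miR-101a-3p at -5.74, miR-322-5p, of the miR-15 family, at -3.57, and miR-29b-3p, which targets collagen mRNAs, at -2.64. Highest were miR-92a-3p at 2.70 and miR-365-3p at 2.49, and next came miR-146a-5p, a regulator of inflammatory signalling, at 0.37, which did not pass. In KD3, 2 were higher and 10 lower, against 26.0% and 39.3% of all tested, and in KD6 2 were higher and 9 lower, against 30.5% and 37.8%. None of the 18 passed edgeR's test of a change in the ratio between conditions. The change of miR-101a-3p between KD6 and WT was 1.08 ± 0.26 (edgeR adjusted p = 0.070), and DESeq2 called it (1.01, adjusted p = 0.017) with miR-193b-3p (-2.25, 0.025) and miR-23b-3p (-0.88, 0.046), and miR-322-5p between KD6 and KD3 (-1.24, 0.039). In all, of 1211 miRNAs fitted, DESeq2 called 27 higher and 4 lower against WT, and 16 higher and 6 lower against KD3. With total mapped reads edgeR called miR-193b-3p, miR-23b-3p and miR-322-5p between KD6 and WT (-2.74, -1.62 and -1.87, each with an adjusted p of 0.037), where it called 51 of 564 miRNAs in all. Without the filter it called miR-193b-3p in both KD6 comparisons, and miR-29b-3p and miR-322-5p in that with KD3. There it called 13 of 1211 miRNAs in all against WT and 22 against KD3. miR-193b-3p and miR-23b-3p are named here after their values were seen. In the inputs 1 of the 18 fell, miR-101a-3p between KD6 and KD3, by 0.88 on the log2 scale (edgeR adjusted p = 0.0070), where 5.12% of all tested were called lower. That call was lost with RLE, total mapped reads, the shallowest library as reference or no filter. Without the filter edgeR called miR-29b-3p higher in both KD6 input comparisons. There it called 15 higher and 6 lower of 1211 miRNAs against WT, and 16 higher and 8 lower against KD3. With the filter most calls in both comparisons were lower.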

How the data were processed

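Small RNA from input and Ψ-IP fractions was sequenced with a ligation-based small RNA kit. Per the labels and the methods, the authors trimmed the 3′ adapter and mapped reads with SeqImp (version not given in the sources used here) to mm10, Ensembl 89 and miRBase 21. The authors deposited estimated counts of reads per miRNA, with multi-mapping reads divided, so 47.0% of non-zero values are not whole, with estimated numbers of distinct read sequences per miRNA. Without molecular identifiers, PCR copies count as reads.

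The members and lists were chosen with earlier results of these data known. For each mature miRNA the row with the most reads was taken (78 had several rows, each of the 4 arms had 1), rounded to whole counts and filtered by edgeR's filterByExpr, which left 547. Library sizes were then recomputed over these rows. The tests were edgeR 4.0.16 quasi-likelihood tests (R 4.3.3) with TMM factors and 1 model of 6 group means, with Benjamini-Hochberg adjustment over the 547 and a threshold of 0.05. Standard errors are the log2 change divided by the square root of F. Arm shares used unrounded counts, and the log2 arm ratios had 0.5 added to each count and were tested by exact permutation over libraries (SciPy 1.17.1). Alternatives were RLE factors, total mapped reads, no filter, summed copies, DESeq2 1.42.0 (which the authors used), a replicate block, 1 added to each count, rounded counts and leaving out each library. Those with the shallowest library as TMM reference, with the reference kept when a library was left out, and exact sign flips within paired inputs, were added after seeing the data. The edgeR tests were also run on simulated counts. There each miRNA had the same mean level in every group, apart from changes added in 1 group. That run does not cover the wide shift between input and IP or the choice of reference library.

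Named miRNAs were the 4 arms, those sharing a seed, the 3 most alike by r per arm, and the 3 highest and 3 lowest hairpins and cartilage-list miRNAs in WT. The letters A, B and C were taken to pair libraries only where same-letter deviations from the group means, over 197 miRNAs, correlated above 0.1 for every letter. This held between KD3 and WT inputs (r of 0.22 to 0.59) and between KD6 and KD3 inputs (0.24 to 0.32), and for no other pair of groups.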

Additional observations from a re-analysis of the deposited data

How the results depend on the processing

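The arm differences (5p minus 3p in the IP to input ratio) kept their direction and stayed within 1 SD of the values given under every alternative run. Scaling between libraries nearly cancels in such a difference, so the alternatives that change only the scaling could hardly move it. Comparisons between conditions moved with the scaling, and beyond what the alternatives' construction shows the cause was not tested. Counts of miRNAs called moved as follows. Changes in the ratio between KD3 and WT went from 0 to 1 without the filter. Those between KD6 and WT went from 0 to 51 with total mapped reads, 13 without the filter and 31 with DESeq2, and those between KD6 and KD3 from 1 to 8, 22 and 22. Input calls between KD3 and WT went from 2 to 0 with RLE, total mapped reads, summed copies or the shallowest library as reference, 5 without the filter, 10 with DESeq2 and 1 with the replicate block. Those between KD6 and WT went from 25, of which 21 were lower, to 14 with total mapped reads or the shallowest reference, of which 7 were lower. Input calls between KD6 and KD3 went from 35 to 22 with RLE, 11 with total mapped reads and 12 with the shallowest reference. Of the 35, 28 were lower, while of the 11 with total mapped reads 10 were higher. With 1 library left out these counts ran from 0 to 37 and 0 to 46 for the KD6 ratio against WT and KD3 (highest on leaving out KD6 IP replicate C), and for the inputs from 0 to 4 (KD3 against WT), 0 to 31 (KD6 against WT) and 1 to 52 (KD6 against KD3, highest without replicate A of the KD6 input). The replicate block changed 1 call among the 4 arms, that of miR-140-3p in the KD6 against WT inputs (edgeR adjusted p = 0.066), and took that comparison from 25 to 17 calls. With the shallowest reference the IP to input ratio of miR-455-3p reversed to 0.10 in KD3 and 0.21 in KD6. Small changes that no fit called also reversed. In the KD6 ratio with total mapped reads miR-140-5p had -0.22 against WT, and miR-455-3p had -0.041 against WT and -0.38 against KD3, and -0.13 against KD3 without the filter. In the KD3 ratio miR-455-5p had -0.13 with total mapped reads and -0.037 with the shallowest reference. In the inputs miR-140-5p had 0.0019 with RLE, 0.054 without the filter and 0.0020 with DESeq2 for KD3 against WT, and 0.0040 with total mapped reads for KD6 against KD3. miR-455-5p for KD6 against WT had 0.081 with RLE, 0.072 with total mapped reads, 0.21 without the filter, 0.077 with DESeq2 and 0.13 with the shallowest reference. miR-455-3p for KD6 against KD3 had 0.20, 0.014 and 0.054 with total mapped reads, no filter and the shallowest reference. With 1 library left out, miR-455-3p ran from -0.85 to 0.32 (IP to input in KD3), -1.0005 to 0.63 (in KD6), -0.43 to 0.65 (ratio, KD6 against KD3), -0.35 to 0.54 (input, KD6 against WT) and -0.66 to 0.29 (input, KD6 against KD3). miR-455-5p ran from -0.27 to 0.21 (ratio, KD3 against WT) and -0.23 to 0.30 (input, KD6 against WT), and miR-140-5p from -0.10 to 0.12 (input, KD3 against WT). The 5p to 3p ratio of mir-455 ran from -0.37 to 0.22 (input, KD6 against WT), -0.56 to 0.039 (input, KD6 against KD3) and -0.43 to 0.0066 (IP, KD3 against WT). Depth limits miR-455-5p in the IP, at 15.5 to 79.5 reads, and miR-455-3p in replicate A of the KD6 input, at 6.3 reads.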
